A study of Rattus norvegicus with 4 samples.

Results

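The genes described here encode chains of collagens VI, VIII, XII, XIV and XVI, which are collagens that do not form the bulk fibrils of connective tissue themselves. They were chosen by gene symbol, as Col6a1, Col6a2, Col6a3, Col8a1, Col12a1, Col14a1 and Col16a1. All 7 were found among the 34034 genes of the count table, and all 7 were among the 12228 genes that passed a filter of at least 40 counts over the 4 libraries. The study measured mesenchymal stem cells from rat femurs, cultured in osteogenic induction medium and sampled at day 1, after 24 h of treatment. The conditions were senescent cells given trichostatin A and phenamil (TSA + phenamil), senescent cells given trichostatin A (TSA), senescent cells given vehicle (senescent control) and young cells given vehicle (young control). Trichostatin A is an inhibitor of histone deacetylases, and phenamil is a derivative of amiloride. The second compound is phenamil in the sample labels but benzyl ether in the design text of the series, and the labels were followed. The sample titles word the treatments as 'TSA extracs treat' and 'TSA and phenamil extracs treat', and the meaning of 'extracs' was not settled. No library held phenamil alone, so its addition can be read only on top of TSA. How the cells became senescent, the doses, the strain and the number of animals are not stated in the sources used.

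Collagen VI is built as a trimer of the chains encoded by Col6a1, Col6a2 and Col6a3. The trimers assemble inside the cell, are secreted, and join end to end into beaded microfilaments around cells in muscle, tendon, cartilage and bone. Collagens XII, XIV and XVI belong to the FACIT group (fibril-associated collagens with interrupted triple helices), which lie on the surface of collagen fibrils and link them to other matrix molecules. Collagen VIII belongs to neither class: it is a short-chain collagen that forms lattices, best known beneath endothelium and in the cornea. In mice, loss of collagen XII or of collagen VI is known to disturb the arrangement of osteoblasts and the bone matrix they lay down.

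Promoter sequences from RefSeq on the build GRCr8 were found for 4 of the 7 genes, Col6a1, Col6a3, Col8a1 and Col16a1. Each covers 250 bases before to 50 bases after the annotated start. The first pair is shown because these chains of 1 trimer had the most similar profiles over the libraries, and Col8a1 because it was the most abundant of the 7 genes. Capitals mark matches, on either strand, to any of 5 motifs: TATAAA (the TATA box), GGGCGG (the GC box bound by SP1), CCAAT (the CCAAT box), CAGAC (a SMAD element) and TGACTCA (an AP-1 element). Col6a1 lies on the plus strand at chr20:11905440-11905739, Col6a3 on the minus strand at chr9:98886909-98887208, and Col8a1 on the plus strand at chr11:56246532-56246831.
Col6a1: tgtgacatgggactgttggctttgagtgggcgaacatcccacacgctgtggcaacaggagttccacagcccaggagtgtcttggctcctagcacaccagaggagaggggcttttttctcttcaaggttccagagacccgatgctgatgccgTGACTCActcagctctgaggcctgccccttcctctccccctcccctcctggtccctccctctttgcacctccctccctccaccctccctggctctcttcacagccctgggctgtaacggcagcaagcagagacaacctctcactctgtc
Col6a3: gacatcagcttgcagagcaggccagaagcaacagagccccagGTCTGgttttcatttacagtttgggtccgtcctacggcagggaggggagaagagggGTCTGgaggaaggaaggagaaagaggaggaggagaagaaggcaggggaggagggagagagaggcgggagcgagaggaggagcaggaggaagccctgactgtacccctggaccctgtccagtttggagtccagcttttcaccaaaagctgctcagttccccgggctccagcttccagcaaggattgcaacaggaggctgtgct
Col8a1: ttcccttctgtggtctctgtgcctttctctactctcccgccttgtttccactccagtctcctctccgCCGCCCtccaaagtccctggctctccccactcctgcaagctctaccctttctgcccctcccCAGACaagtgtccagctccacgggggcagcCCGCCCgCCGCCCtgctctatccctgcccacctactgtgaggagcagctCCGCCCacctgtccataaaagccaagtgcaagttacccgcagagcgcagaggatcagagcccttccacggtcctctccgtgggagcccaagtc
The capitals in Col6a1 are 1 match to TGACTCA, 99 bases before the start, a motif held by 4.63% of the 33469 promoters in the same table. In Col6a3 they are 2 matches to CAGAC on the opposite strand, a motif found in 50.1% of promoters. In Col8a1 they are 4 matches to GGGCGG on the opposite strand and 1 to CAGAC. The Col16a1 promoter held 2 matches to GGGCGG, which 33.1% of promoters hold. No match to TATAAA or CCAAT lay in these 4 windows, against 14.2% and 37.5% of all promoters. A match describes letters and not a working site, and a missing match says only that the letters are not in these windows. The G and C content was 59.7% for Col6a1, 58.7% for Col6a3, 62.7% for Col8a1 and 75% for Col16a1, against a median of 51.7% over all promoters. In the same annotation Col6a1 and Col6a2 lie close together on chromosome 20, with 2 genes for long non-coding RNAs between them, while the other members are each on a chromosome of their own.

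The libraries held 10720172 counts (TSA + phenamil), 9873894 counts (TSA), 11024227 counts (senescent control) and 10905230 counts (young control). They were made with a 3' tag kit, in which a transcript gives reads near its end whatever its length, so levels of different genes can be set side by side without division by length. Levels are given as CPM, counts per 1000000 of a library size that was scaled by trimmed means of M-values (TMM). With 1 library per condition there was no spread between replicates and no test. Every ratio describes 2 libraries, and the 95% interval after it covers counting error only. A gene was called higher when its whole interval was at least 25% above the other library, and lower when the whole interval was at least 20% below it. A weaker rule asked only that the interval exclude no change. Interval width falls with the count, so the weaker rule is met more easily by abundant genes, and its background is given over the 5270 genes with at least 1000 counts. Among the 634 genes with at least 10000 counts, where counting error is small, the SD of the log2 ratio was 0.17 for senescent against young control, 0.17 for TSA against senescent control, 0.18 for TSA + phenamil against senescent control and 0.21 for TSA + phenamil against TSA. Of the stromal markers 11 of 11 were detected, with a summed level of 1141 to 1181 CPM, most of it Thy1 at 754 to 803 CPM. Some were rare: Eng stood at 1.62 to 2.19 CPM, Vcam1 at 0.857 to 2.22 CPM and Lepr at 1.01 to 4.095 CPM. Endothelial markers summed to at most 0.403 CPM, with Pecam1, Vwf and Emcn at 0 in all 4 libraries. Haematopoietic markers summed to 5.14 to 9.58 CPM, nearly all of it Cd14, with Adgre1, Itgam and Aif1 at 0 in all 4. Adipocyte markers summed to 13.8 to 19.5 CPM, with Lep and Cidec at 0. Tendon markers summed to 300.5 to 333 CPM, most of it Egr1 at 179 to 224 CPM. Scx stood at 91.1 to 119 CPM, and Tnmd was at 0. Chondrocyte markers summed to 513 to 597 CPM, most of it Acan at 320 to 380 CPM. Sox9 stood at 39.2 to 56.2 CPM, Col2a1 had counts in all 4 libraries, and Matn1 was at 0.

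The collagen VI chains were among the abundant transcripts of these cells, and the TSA and senescent control libraries were below the other pair in their sum. Summed over the 3 chains, collagen VI stood at 3160 CPM in the TSA + phenamil library, 2591 CPM in the TSA library, 2665 CPM in the senescent control and 3266 CPM in the young control. The sum was 0.816 (0.803 to 0.829) times the young level in the senescent control, and 1.19 (1.17 to 1.20) times the senescent level in the TSA + phenamil library. In the TSA library it was 0.972 (0.956 to 0.989) times the senescent control. In bulk RNA, fewer cells of a type and less RNA per cell cannot be told apart, for these and all values below.

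Col6a1, which encodes the alpha 1 chain present in every collagen VI trimer, stood at 1303 CPM in the TSA + phenamil library, 1121 CPM in the TSA library, 1017 CPM in the senescent control and 1365 CPM in the young control. The senescent control was the lowest of the 4, and the TSA + phenamil and young control libraries were the highest. Senescent against young control gave a ratio of 0.745 (0.727 to 0.764), which met the stricter rule. TSA against senescent control gave 1.10 (1.07 to 1.13). TSA + phenamil against senescent control gave 1.28 (1.2495 to 1.31), an interval whose lower end fell just short of that rule.

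Col6a2, which encodes the alpha 2 chain, stood at 1286 CPM in the TSA + phenamil library, 1014 CPM in the TSA library, 1221 CPM in the senescent control and 1351 CPM in the young control. Here the TSA library was the lowest, and the senescent control lay nearer to the young control than it did for Col6a1. The senescent control stood at 0.903 (0.883 to 0.925) times the young control. TSA against senescent control gave 0.831 (0.810 to 0.853), the opposite direction to Col6a1. TSA + phenamil against TSA gave 1.27 (1.24 to 1.30).

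Col6a3, which encodes the large alpha 3 chain with many von Willebrand factor A domains, stood at 571 CPM in the TSA + phenamil library, 455 CPM in the TSA library, 427 CPM in the senescent control and 549.9 CPM in the young control. Its order over the libraries was that of Col6a1 at the low end, with the senescent control lowest, while the TSA + phenamil library was the highest. Senescent against young control gave 0.777 (0.748 to 0.807), and TSA against senescent control gave 1.07 (1.02 to 1.11). TSA + phenamil against senescent control gave 1.34 (1.29 to 1.39), which met the stricter rule.

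**Figure D1:**
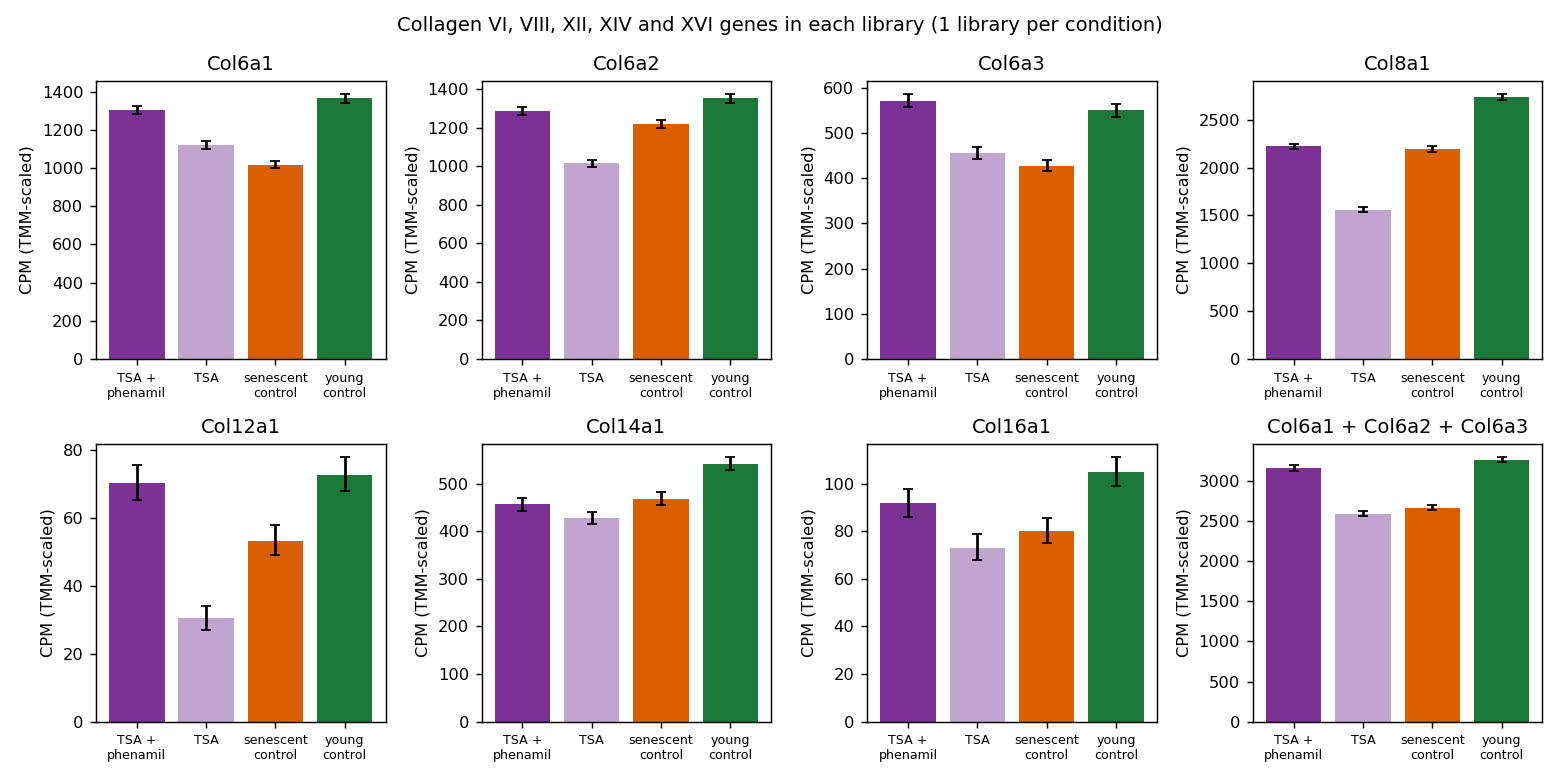
Scaled level in CPM (vertical axis, from 0) of each of the 7 collagen genes and of the summed collagen VI chains in the TSA + phenamil, TSA, senescent control and young control libraries, with 95% exact Poisson intervals as bars. Col12a1 stands at 30.4 CPM in the TSA library against 53.4 to 72.8 CPM in the others, while Col14a1 stays between 428 and 542 CPM.

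Ratios between chains within a library do not depend on how libraries are scaled. The counts of Col6a2 per count of Col6a1 were 0.987 (0.964 to 1.01) in the TSA + phenamil library, 0.905 (0.881 to 0.930) with TSA alone, 1.20 (1.17 to 1.23) in the senescent control and 0.990 (0.968 to 1.01) in the young control. The senescent control thus held an excess of Col6a2 over Col6a1 counts that no other library had. The quotient of this ratio was 1.21 (1.17 to 1.254) for senescent against young control, 0.754 (0.726 to 0.782) for TSA against senescent control, and 0.997 (0.965 to 1.03) for TSA + phenamil against young control. The counts of Col6a3 per count of Col6a1 were 0.438 (0.425 to 0.452), 0.406 (0.392 to 0.420), 0.420 (0.406 to 0.435) and 0.403 (0.391 to 0.415) in the same order of libraries. This second ratio varied less, with a quotient of 1.04 (0.996 to 1.09) for senescent against young control and of 0.966 (0.920 to 1.01) for TSA against senescent control. It was highest in the TSA + phenamil library, with quotients that excluded no change, at 1.08 (1.03 to 1.13) against TSA and 1.09 (1.04 to 1.14) against young control. All of these come from single libraries, and the spread of such ratios between cultures is not known. How far such quotients vary between other pairs of genes was not computed, here or for the ratios below.

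**Figure D2:**
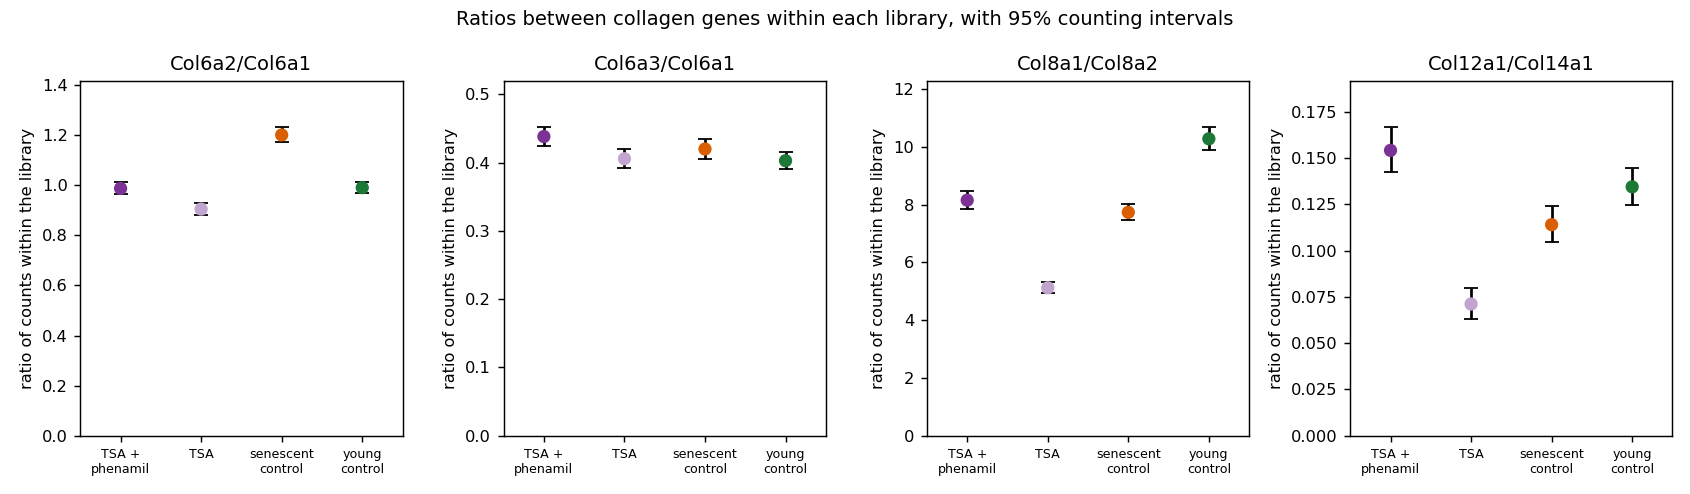
Ratio of the counts of 2 collagen genes within each library (vertical axis, from 0, no unit), with 95% exact intervals for counting error. Col6a2/Col6a1 is 1.20 in the senescent control and 0.905 to 0.990 elsewhere, and Col8a1/Col8a2 and Col12a1/Col14a1 are lowest in the TSA library, at 5.12 and 0.0711.

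Col8a1, which encodes the alpha 1 chain of collagen VIII, was the most abundant of the 7 genes in every library. It stood at 2223 CPM in the TSA + phenamil library, 1561 CPM in the TSA library, 2194 CPM in the senescent control and 2735 CPM in the young control. The TSA library was the lowest and the young control the highest, with the other pair between them and close to each other. TSA against senescent control gave 0.711 (0.697 to 0.726), and TSA + phenamil against TSA gave 1.42 (1.40 to 1.45), both past the stricter rule. The ratio for senescent against young control was 0.802 (0.789 to 0.816), just short of it. TSA + phenamil against senescent control gave 1.01 (0.995 to 1.03), with an interval that included no change.

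Its partner chain Col8a2, which can form trimers with or without it, lies outside the set and varied less. Col8a2 stood at 273 CPM in the TSA + phenamil library, 305 CPM in the TSA library, 284 CPM in the senescent control and 266 CPM in the young control, and was called in none of the 6 comparisons. The counts of Col8a1 per count of Col8a2 were 8.16 (7.85 to 8.48) in the TSA + phenamil library, 5.12 (4.93 to 5.33) with TSA alone, 7.74 (7.45 to 8.03) in the senescent control and 10.3 (9.90 to 10.7) in the young control. The balance of the chains thus differed between libraries beyond counting error, with a quotient of 0.662 (0.627 to 0.699) for TSA against senescent control. The quotient was 1.59 (1.51 to 1.68) for TSA + phenamil against TSA and 0.753 (0.713 to 0.794) for senescent against young control.

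Col12a1, which encodes the chain of collagen XII, a FACIT homotrimer of tendon, ligament and bone surfaces, was the rarest of the 7 genes and the one that varied most. It had 738 counts (70.3 CPM) in the TSA + phenamil library, 302 counts (30.4 CPM) in the TSA library, 588 counts (53.4 CPM) in the senescent control and 808 counts (72.8 CPM) in the young control. The TSA library lay far below the other 3. TSA against senescent control gave 0.570 (0.495 to 0.656), the lowest ratio of all 5270 genes with at least 1000 counts. TSA + phenamil against TSA gave 2.31 (2.02 to 2.65), the 3rd highest of the same 5270 genes. Both comparisons contain the TSA library, so they are not separate observations of it. Against the young control the TSA library stood at 0.418 (0.365 to 0.478) and the TSA + phenamil library at 0.965 (0.872 to 1.07), the second interval including no change. Senescent against young control gave 0.733 (0.658 to 0.816).

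Col14a1, which encodes the chain of the related FACIT collagen XIV, was far steadier. It stood at 456 CPM in the TSA + phenamil library, 428 CPM in the TSA library, 468 CPM in the senescent control and 542 CPM in the young control. The young control was the highest and the other 3 lay close together. For senescent against young control the ratio was 0.864 (0.833 to 0.897), TSA against senescent control 0.914 (0.877 to 0.952), and TSA + phenamil against senescent control 0.974 (0.936 to 1.01). The counts of Col12a1 per count of Col14a1 were 0.154 (0.142 to 0.167) in the TSA + phenamil library, 0.0711 (0.0631 to 0.0800) with TSA alone, 0.114 (0.104 to 0.124) in the senescent control and 0.134 (0.125 to 0.145) in the young control. These FACIT chains therefore stood in different proportions in the libraries, with a quotient of 2.17 (1.88 to 2.50) for TSA + phenamil against TSA.

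Col16a1, which encodes the chain of collagen XVI, a minor FACIT of fibrils and microfibrils, had 962 counts (91.6 CPM) in the TSA + phenamil library, 725 counts (73.1 CPM) in the TSA library, 883 counts (80.2 CPM) in the senescent control and 1164 counts (105 CPM) in the young control. Its order was that of Col12a1, with the TSA library lowest and the young control highest, over a narrower range. The senescent control was at 0.764 (0.699 to 0.835) of the young level, and TSA against senescent control 0.912 (0.825 to 1.01), an interval that included no change. TSA + phenamil against TSA gave 1.253 (1.14 to 1.38).

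From the highest to the lowest library the 7 genes spanned 2.39-fold (Col12a1), 1.75-fold (Col8a1), 1.44-fold (Col16a1), 1.34-fold (Col6a1), 1.34-fold (Col6a3), 1.33-fold (Col6a2) and 1.27-fold (Col14a1). The median span of the 5270 genes with at least 1000 counts was 1.21-fold. Of those genes, 0.0949% spanned more than Col12a1, 1.54% more than Col8a1, 10.3% more than Col16a1 and 20.6% more than Col6a1, whereas 34.9% spanned more than Col14a1. Of the 7, only Col12a1 and Col8a1 were thus far out in the range of these genes.

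**Figure D3:**
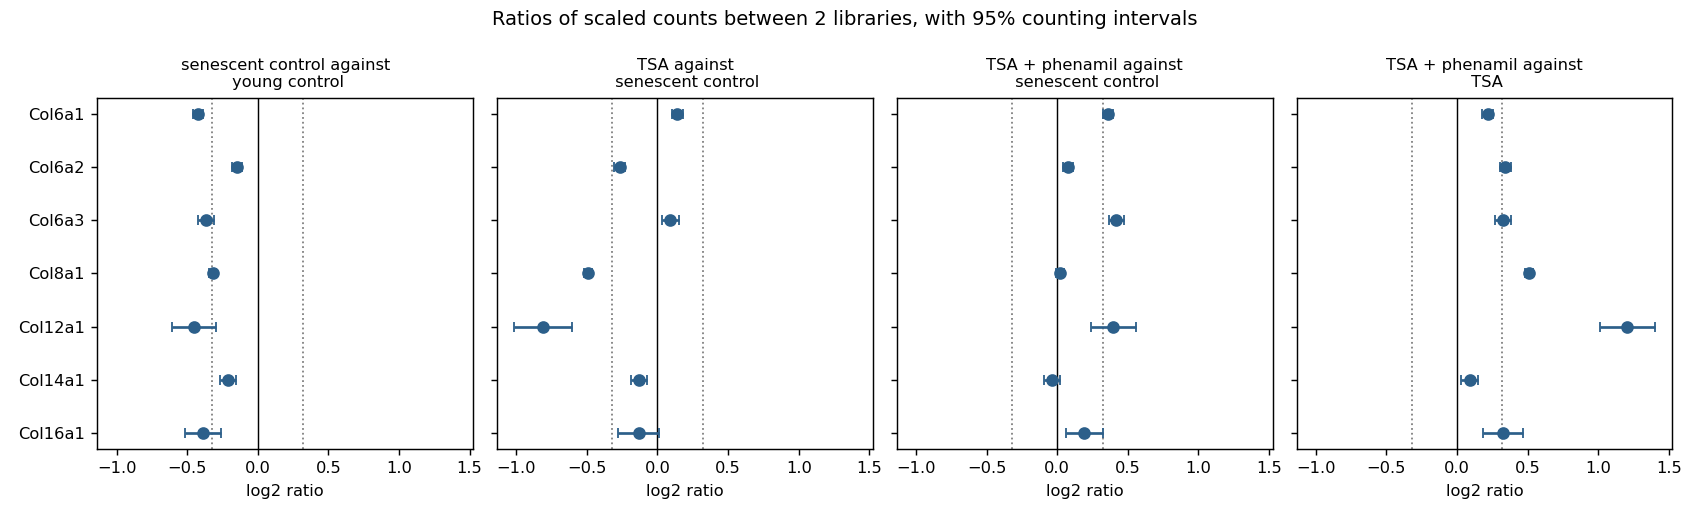
Log2 ratio of scaled counts (horizontal axis) of each of the 7 collagen genes in 4 comparisons, with 95% exact intervals; the solid line marks no change and the dotted lines the limits of the stricter rule. All 7 points lie left of no change for senescent against young control and right of it for TSA + phenamil against TSA, with Col12a1 farthest out at 2.31-fold.

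The comparison of senescent with young control asked how senescent cells differed without treatment. All 7 genes were lower in the senescent control with intervals that excluded no change, and none was higher. Among genes with at least 1000 counts this weaker rule called 20.7% lower and 25.6% higher. Col6a2 lay within the SD of 0.17 of genes with at least 10000 counts. Its log2 ratio was -0.15, with 21.1% of the 5270 genes lower still. By the stricter rule 1 of 7 was lower, Col6a1, and 0 were higher, against 2.38% and 2.52% of all genes tested. The median log2 ratio of the 7 was -0.36, against 0.00 over all genes. Of 5 chondrocyte markers with enough counts 3 were higher in the senescent control. These were Hapln1 at 1.55 (1.36 to 1.77), Sox9 at 1.43 (1.27 to 1.62) and Comp on 34 against 10 counts. Acan, at 380 against 359 CPM, and Col2a1, at 105 against 102 CPM, were not called. The summed level of the chondrocyte markers was 597 CPM in the senescent control and 536 CPM in the young control. The part of these markers in the result was not tested.

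TSA against senescent control asked how senescent cells with TSA differed from senescent cells with vehicle. Col8a1 and Col12a1 were lower by the stricter rule, 2 of 7, and 0 were higher, against 2.03% lower and 1.85% higher of all genes. By the weaker rule 4 were lower (Col6a2, Col8a1, Col12a1 and Col14a1), 2 were higher (Col6a1 and Col6a3) and 1 was neither, against 20.0% lower and 21.7% higher. By this rule the genes did not all share a direction, and the chains of collagen VI lay on both sides. The 2 higher genes lay within the SD of 0.17 of genes with at least 10000 counts. Their log2 ratios were 0.14 for Col6a1 and 0.09 for Col6a3, with 21.2% and 30.7% of the 5270 genes higher still. Of the 4 lower genes Col14a1 also lay within that SD, at -0.13, with 23.5% of the 5270 genes lower still. The median log2 ratio of the 7 was -0.13, against 0.00 over all genes. Of the stromal markers only Pdgfrb, the receptor for platelet-derived growth factor B, was called, at 0.663 (0.566 to 0.776). Its part in the result was not tested.

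TSA + phenamil against senescent control gave higher values for 5 of 7 genes by the weaker rule (Col6a1, Col6a2, Col6a3, Col12a1 and Col16a1) and lower for 0, against 20.9% higher and 22.4% lower. By the stricter rule 1 was higher, Col6a3, and 0 were lower, against 1.97% higher and 1.82% lower. The median log2 ratio of the 7 was 0.19, against 0.00 over all genes. Of the 5 higher genes Col6a2 lay within the SD of 0.18 of genes with at least 10000 counts. Its log2 ratio was 0.08, with 33.2% of the 5270 genes higher still. Col8a1 and Col14a1 had intervals that included no change, but with total counts as the scaling Col14a1 was lower by the weaker rule, at -0.07 (-0.12 to -0.01) on the log2 scale. Of the 4 tendon markers with enough counts 1 was higher in this pair, Egr2 at 2.56 (1.40 to 4.90) on 39 against 16 counts. Of 5 chondrocyte markers 1 was lower, Comp at 0.401 (0.194 to 0.780) on 13 against 34 counts. Their part in the result was not tested.

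TSA + phenamil against TSA, a comparison of phenamil added to TSA with TSA alone going by the labels, gave higher values for all 7 genes by the weaker rule, against 22.0% higher and 24.8% lower among genes with at least 1000 counts. With total counts as the scaling it was 6 of 7, since the log2 interval of Col14a1 (-0.004619 to 0.12) then included no change. By the stricter rule Col8a1 and Col12a1 were higher, 2 of 7, and 0 were lower, against 2.71% higher and 2.51% lower of all genes. The median log2 ratio of the 7 was 0.33, against 0.00 over all genes. Col14a1 lay within the SD of 0.21 of genes with at least 10000 counts. Its log2 ratio was 0.09, with 32.5% of the 5270 genes higher still. Col6a2 at 1.27, Col6a3 at 1.255 (1.21 to 1.30) and Col16a1 at 1.253 had ratios near the limit. In this pair 2 of 11 stromal markers were higher, Pdgfrb at 1.83 (1.57 to 2.13) and Lepr at 4.06 (2.01 to 9.07) on 43 against 10 counts, and 1 of 5 chondrocyte markers was lower, Hapln1 at 0.560 (0.495 to 0.633). Their part in the result was not tested.

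Against the young control, the TSA library held lower values for all 7 genes by the weaker rule, against 26.1% lower and 30.3% higher. By the stricter rule it was lower for 4 of 7 and higher for 0, against 4.92% lower and 4.81% higher of all genes. The 4 were Col12a1, Col8a1 at 0.571 (0.560 to 0.582), Col16a1 at 0.697 (0.634 to 0.765) and Col6a2 at 0.751 (0.732 to 0.770). Of 11 stromal markers, Pdgfrb at 0.553 (0.474 to 0.643) and Lepr at 0.254 (0.114 to 0.513) were lower in the TSA library than in the young control, and Nt5e was higher at 1.63 (1.27 to 2.09). Of 5 chondrocyte markers 1 was higher there, Hapln1 at 2.05 (1.81 to 2.32). In the TSA + phenamil library 1 of 4 tendon markers was lower than in the young control, Mkx at 0.338 (0.132 to 0.773) on 8 against 25 counts. The part of these markers in the result was not tested. The TSA + phenamil library was called for 0 of 7 genes in either direction, against 1.88% lower and 2.23% higher. By the weaker rule it was lower for 5 and higher for 1, against 20.5% lower and 23.0% higher. Col8a1 was the lowest of these at 0.813 (0.799 to 0.827), and Col6a3 was the higher one at 1.04 (1.002 to 1.08), but its interval included no change when libraries were scaled by DESeq2 size factors or by total counts. On the log2 scale it was 0.05 (-0.001165 to 0.10) with DESeq2 size factors and 0.00 (-0.05 to 0.05) with total counts. The median log2 ratio of the 7 was -0.41 for TSA and -0.07 for TSA + phenamil. The SD over genes with at least 10000 counts was 0.28 for TSA and 0.18 for TSA + phenamil. Col6a3 lay within it for TSA, at -0.27. For TSA + phenamil Col6a1 (-0.07), Col6a2 (-0.07), Col6a3 and Col12a1 did. The 6 comparisons share libraries, and their values are not independent of each other.

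**Figure D4:**
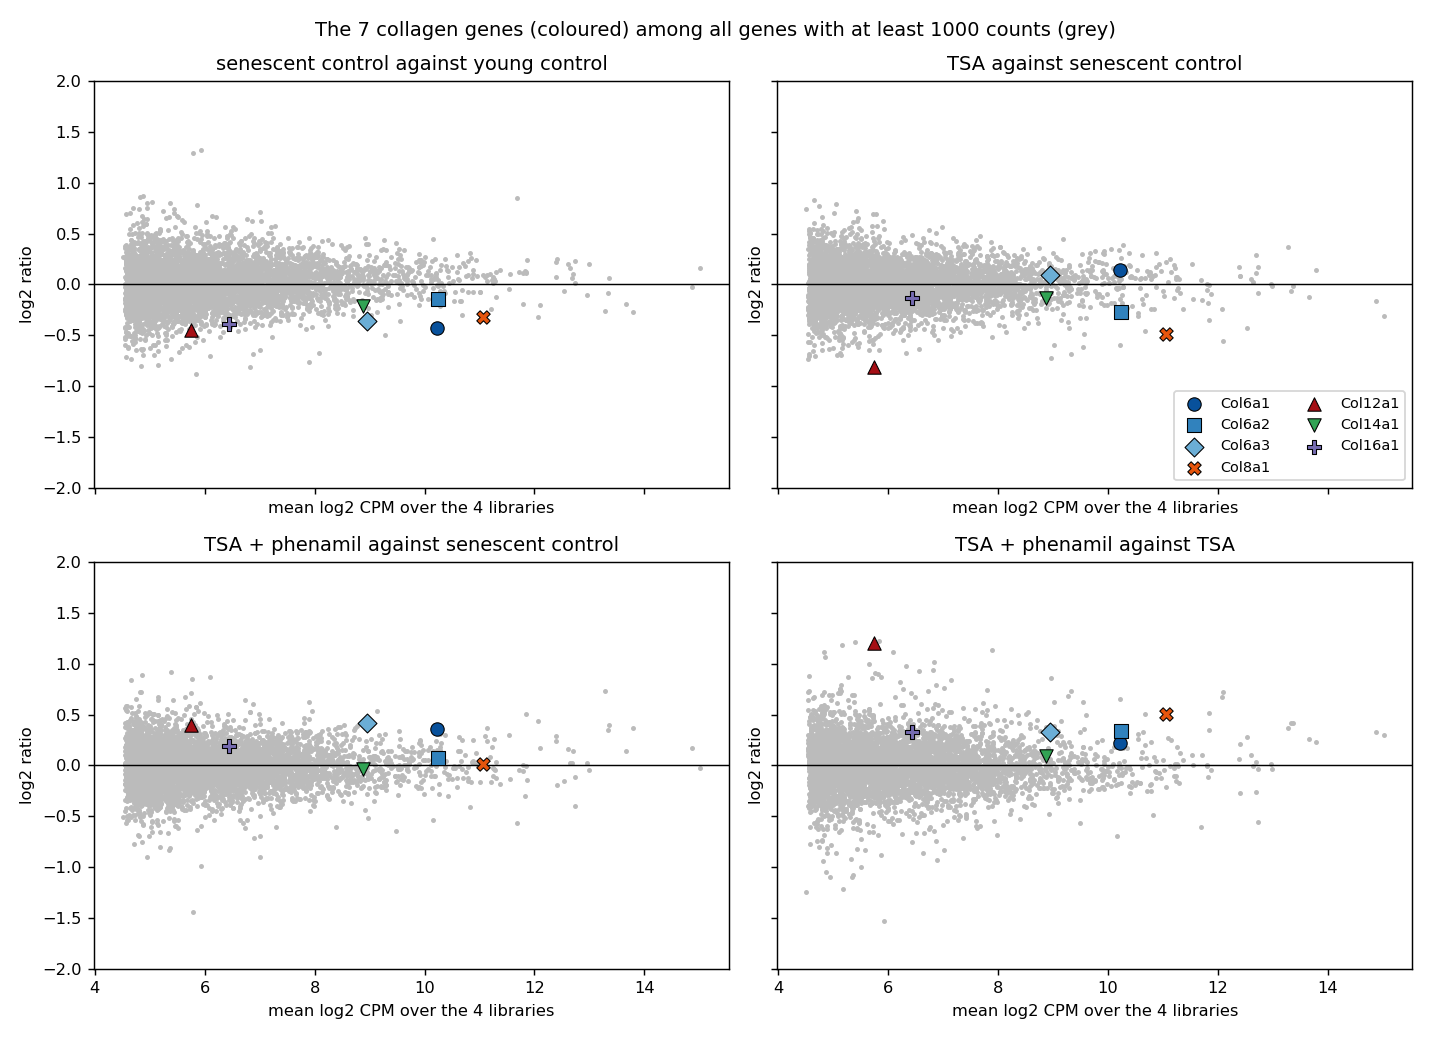
Log2 ratio (vertical axis) against the mean log2 CPM over the 4 libraries (horizontal axis) in 4 comparisons, with the 7 collagen genes as coloured symbols and the 5270 genes with at least 1000 counts in grey. Col12a1 is the lowest of all points for TSA against senescent control, and Col8a1 lies below most grey points in the same panel, at 0.711-fold, and above most of them for TSA + phenamil against TSA, at 1.42-fold.

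As a share of all counts the 7 genes took 0.588% in the TSA + phenamil library, 0.470% with TSA alone, 0.546% in the senescent control and 0.684% in the young control. As a share of the counts of all 44 collagen genes in the table they took 8.99% (8.92 to 9.05), 8.71% (8.63 to 8.78), 9.11% (9.04 to 9.18) and 10.3% (10.2 to 10.4) in the same order of libraries. All collagens together took 6.54%, 5.40%, 5.99% and 6.64% of counts. The young control was thus the highest in each share, and the TSA library the lowest. Within the 7 genes, Col8a1 supplied 37.0% of the counts in the TSA + phenamil library, 33.3% with TSA alone, 40.2% in the senescent control and 40.7% in the young control.

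The profiles were compared as log2 CPM centred on each gene's mean over the 4 libraries, by root mean square distance. Among the 7 genes the closest pair was Col6a1 and Col6a3, at 0.048, and 25 other genes were closer still to Col6a1. Col6a1 and Col6a2 were 0.149 apart, farther than Col6a2 and Col16a1, at 0.0857. Col12a1 was the most distant gene, 0.251 from Col8a1 and 0.421 from Col6a1. The 3 nearest genes outside the set were Cic, Pkd1 and Tns2 for Col6a1, Ctsf, Myo6 and Utrn for Col6a2, and Chd1, Deaf1 and Tmem132a for Col6a3. For Col8a1 they were Lyst, Strn and Map4k3, for Col14a1 Acaa1a, Dmrta2 and Gpr108, and for Col16a1 Tnrc6c, Sirt6 and Crebbp. For Col12a1 they were Gucy1a1 at 0.0797, Lmcd1 at 0.120 and Adarb1 at 0.123, all farther than the nearest genes of the other members, which were at 0.00758 to 0.0181. With 4 libraries many genes lie close by number alone, and nearness is a description of these libraries.

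Other chains of the same collagen classes were mostly rare. Of 12 listed, 11 were in the table and 4 had enough counts, namely Col8a2, Col9a1, Col9a2 and Col20a1. Col6a4, Col6a5 and Col22a1 had no count in any of the 4 libraries, where a count of 0 leaves room for at most 0.270 to 0.302 CPM. Col9a1, a chain of the cartilage FACIT collagen IX, was about as abundant as Col6a1 and Col6a2, at 1203 CPM in the TSA + phenamil library, 1184 CPM in the TSA library, 1210 CPM in the senescent control and 1148 CPM in the young control. It was called in none of the comparisons. The only call on this list was Col9a2, lower in the TSA library than in the young control at 0.651 (0.600 to 0.707).

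Of the fibrillar collagens, on whose fibrils the FACITs lie, 9 of 11 had enough counts. For senescent against young control 2 were lower and 0 higher, with Col5a3 at 0.591 (0.561 to 0.623). For TSA against senescent control 1 was lower, Col5a3 again, and for TSA + phenamil against senescent control 2 were higher, Col5a3 and Col3a1. For TSA + phenamil against TSA 4 were higher and 0 lower, with Col5a3 at 2.201 (2.07 to 2.34), Col27a1 at 1.69 (1.51 to 1.88) and Col3a1 at 1.598 (1.58 to 1.62). Their median log2 ratios in these 4 comparisons were -0.19, -0.16, 0.14 and 0.26, of the same signs as those of the 7 genes. Among all 18 collagen genes outside the set with enough counts, 7 were higher and 0 lower for TSA + phenamil against TSA. Differences of this direction were therefore seen in other collagens as well, and no test set the 7 genes apart from them.

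Calls among receptors and binding partners of collagen VI were lower ones, apart from Nid1 in 1 comparison. Of 20 listed genes 16 had enough counts. For senescent against young control 1 was lower and 0 higher: Hspg2, which encodes the basement membrane proteoglycan perlecan, at 0.754 (0.720 to 0.790). Cspg4, which encodes the NG2 proteoglycan, a collagen VI receptor, stood at 54.1 CPM in the TSA + phenamil library, 80.9 CPM in the TSA library, 75.9 CPM in the senescent control and 63.8 CPM in the young control. It was lower in the TSA + phenamil library, at 0.713 (0.639 to 0.794) times the senescent control and 0.669 (0.600 to 0.746) times the TSA library. Col6a1, Col6a2 and Col6a3 were higher there by the weaker rule in both comparisons. Antxr2, which encodes the receptor CMG2 that takes up collagen VI, stood at 75.5 CPM in the TSA + phenamil library, 72.7 CPM in the TSA library, 69.6 CPM in the senescent control and 68.9 CPM in the young control. It was called in none of the comparisons. Nid1, a basement membrane linker, was higher in the TSA + phenamil library than in the TSA library, at 1.54 (1.44 to 1.64). The other calls of these 4 comparisons, Mfap2, Itga10 and Itga2, rested on 6 to 33 counts per library. For TSA against young control 4 of 16 were lower and 0 higher, against 4.92% and 4.81% of all genes tested. The shares of all genes called in the other comparisons are given with each comparison above.

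Partners of the FACITs on the fibril surface went both ways. Of 13 listed genes 11 had enough counts. For TSA against senescent control 2 were lower and 0 higher, Postn (periostin) at 0.702 (0.648 to 0.761) and Ogn (the small proteoglycan osteoglycin) at 0.745 (0.719 to 0.771). For TSA + phenamil against TSA 2 were higher, Postn at 1.79 (1.66 to 1.94) and the microfibril gene Fbn1 at 1.61 (1.55 to 1.67), and 2 were lower, Thbs4 at 0.550 (0.468 to 0.645) and Prelp at 0.644 (0.566 to 0.733). For senescent against young control Fbn1 was lower at 0.706 (0.684 to 0.729), and Comp was higher at 3.42 (1.65 to 7.77) on 34 against 10 counts. Postn, a matricellular protein of bone surfaces, thus went in the directions of Col12a1 in the comparisons that hold the TSA library.

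Few genes of the machinery that makes collagen were called. Of 23 listed genes for prolyl and lysyl hydroxylases, chaperones and export factors, 21 had enough counts. In the 4 comparisons above 0 of 21 were called in either direction by the stricter rule, against 1.82% to 2.71% of all genes per direction. With 21 genes, 0 calls is near that share and does not set the list apart. The medians ran from -0.08 to 0.05. Against the young control Tmem38b was higher in the TSA library at 1.796 (1.32 to 2.45), and P4ha3, a subunit of prolyl 4-hydroxylase, was higher in the TSA + phenamil library at 1.57 (1.41 to 1.75). Each was the only call of 21 in its comparison, against 4.81% and 2.23% of all genes called higher.

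**Figure D5:**
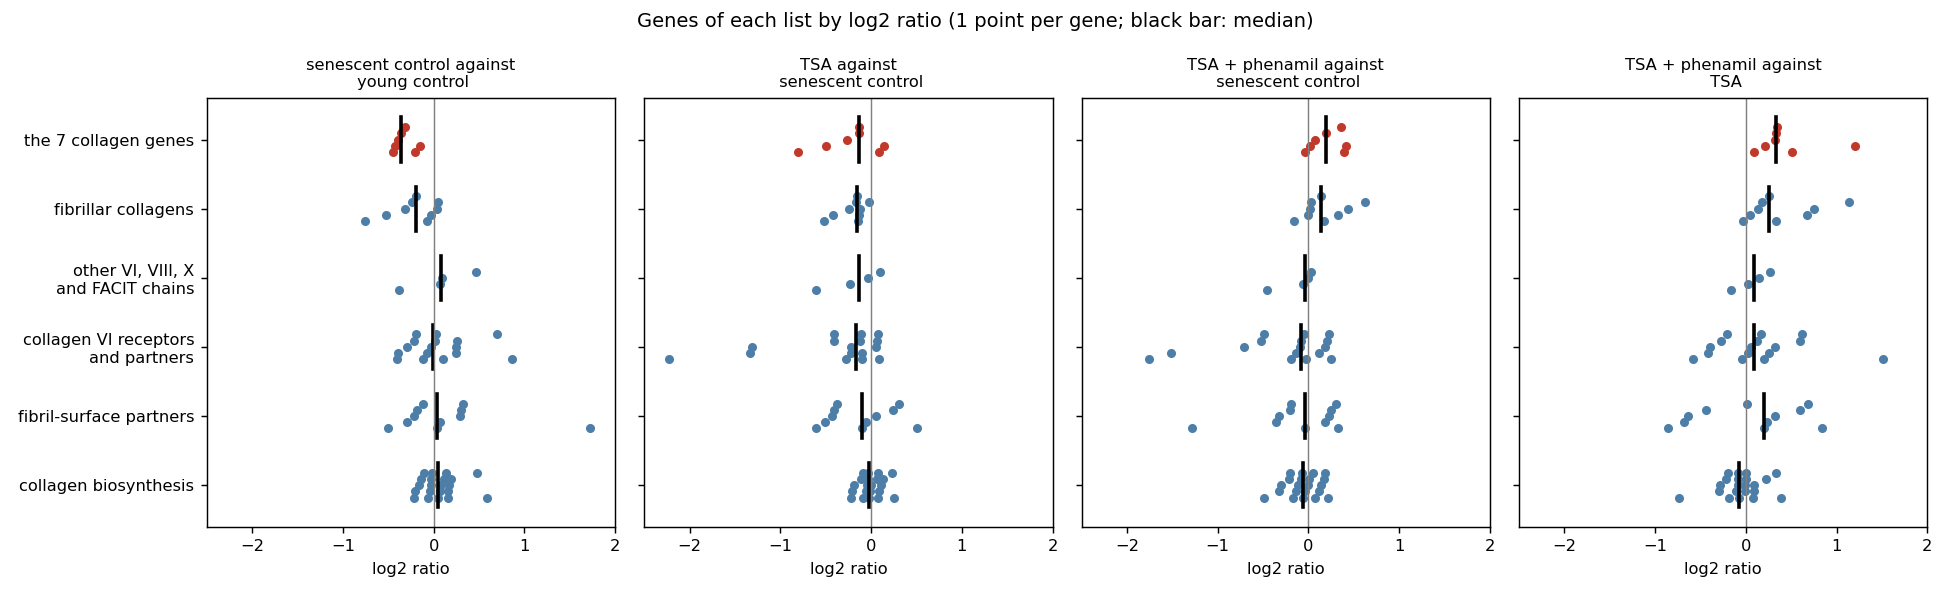
Log2 ratios (horizontal axis) of the genes with enough counts in the set of 7 and in 5 related lists, in 4 comparisons, 1 point per gene and a black bar at the median. The medians of the 7 genes are -0.36, -0.13, 0.19 and 0.33 from left to right, and those of the collagen biosynthesis list lie between -0.08 and 0.05.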

How the data were processed

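The labels place all 4 libraries, 1 per condition, in batch 1. Per the labels' protocols, RNA was extracted with TRIzol and 3' mRNA libraries (QuantSeq FWD) were read single-end at 100 bp. The tools STAR 2.7.10b and HTSeq 2.0.2 and the assembly mRatBN7.2 appear in the submitters' processing notes without a role. Annotation, strand and duplicate handling are not stated there, so reads from overlapping antisense genes cannot be told apart.

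The authors deposited raw counts per gene and, per the file headers, normalized log2 values. The deposited log2 values were checked to be log2(count / library factor + 1), to within 0.000535. The number of unmapped sample columns was 0.

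Counts were scaled with TMM in edgeR 4.0.16 (R 4.3.3) over genes with at least 40 counts, and a prior count of 0.5 entered the log2 ratios. Exact binomial (Clopper-Pearson), Fisher and Poisson intervals came from scipy 1.17.1 (Python 3.11.15, numpy 2.4.6, pandas 2.3.3); figures from matplotlib 3.10.9. The interval rule was tested on simulated Poisson counts. These held no spread between cultures and no repeated reads, so that test covers counting error only. The quasi-likelihood test could not be fitted with 1 library per condition. A count of 0 was taken to allow 3 counts. Reads were not tied to molecules by identifiers as far as the labels say and may repeat a molecule, and the intervals and floors therefore hold counting error alone.

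The members, the lists, the size rule and the motifs were chosen with earlier results of these data known, and the pools of genes with at least 1000 and 10000 counts after the data were seen. Named genes are the 7 members, at most 3 called genes per list and direction (those with the interval bound farthest from no change), and the 3 nearest profiles per member with at least 1000 counts. Beyond these, Col8a2, Col9a1, Antxr2 and markers at 0, at high or low levels, or moving with a comparison were named after their values were seen. Promoters were matched by gene identifier on GRCr8, which is not the build of the counts. Alternatives tried were total counts, size factors of DESeq2 1.42.0, TMM without collagen and mitochondrially encoded genes, the deposited log2 values, other count filters, and rules of no change, 1.5-fold and 2-fold.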

Additional observations from a re-analysis of the deposited data

How the results depend on the processing

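Of 192 values of single genes and of the collagen VI sum under other scalings, 180 stayed within the counting interval and 12 left it, all under total counts, which moved log2 ratios by at most 0.05. The sign changed only for Col8a1 in TSA + phenamil against senescent control, to -0.01 under total counts, where its interval had included no change. Under total counts 2 genes instead of 1 were past the stricter rule for senescent against young control (Col6a3 added), 1 instead of 0 for TSA + phenamil against young control (Col8a1), and the median log2 ratio of that second pair was -0.13 instead of -0.07. Asking only that the interval exclude no change, 7 genes were called for senescent against young control, 6 for TSA against senescent control, 5 for TSA + phenamil against senescent control, 7 for TSA + phenamil against TSA, 7 for TSA against young control and 6 for TSA + phenamil against young control. At 1.5-fold the counts were 0, 1, 0, 1 and 2 in the first 5 of these pairs, and at 2-fold 0, 0, 0, 1 and 1. The shares of all genes called at 1.5-fold and 2-fold were not computed, so nothing is read from these counts. DESeq2 size factors, TMM without collagen and mitochondrially encoded genes and the count filters changed no count of the stricter rule. By the weaker rule DESeq2 size factors lost Col6a3 for TSA + phenamil against young control; total counts lost it too, lost Col14a1 for TSA + phenamil against TSA, and added Col14a1 as lower for TSA + phenamil against senescent control. These weaker-rule counts under other scalings were added after the data were seen. No paired analysis was possible because each condition had 1 library. With 1 library each, the spread between cultures is not known, and no difference could be checked against it; Col12a1 in the TSA library rests on 302 counts.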
